A study of Mus musculus with 21 samples.

Results

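Histone genes were followed in 21 fetal mouse lungs, and the report covers all genes of the H1, H2A, H2B, H3 and H4 families whose symbols belong to the histone gene nomenclature and that had a probe set of their own. A gene was taken when a probe set carried 1 gene symbol starting with Hist1h, Hist2h, Hist3h or Hist4h, or with H1f, H2ac, H2bc, H3c or H4c in the newer naming, and where a gene had several, the brightest by its mean across the 21 arrays stood for it. This gave 29 genes on 30 probe sets, out of 22180 genes with a probe set of their own; H2ac21 was the gene with a second probe set. The lungs came from wild-type Balb/c fetuses at E18.5. The 12 CS fetuses, 6 male and 6 female, had dams exposed to mainstream cigarette smoke (CS) through gestation until the day before the lungs were taken, and the 9 AIR fetuses, 5 male and 4 female, had dams kept in filtered air, which the labels call untreated. Each array held RNA of 1 whole lung, and values are RMA levels on the log2 scale, so that a difference of 1 is a doubling. Per the methods 1 male and 1 female were taken from a litter, but the labels do not tell which fetuses were littermates, so p-values treat littermates as independent and may be too small. In whole lung, fewer cells of a type and less RNA per cell cannot be told apart.

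Histones are the proteins around which DNA is wound, with H2A, H2B, H3 and H4 in the nucleosome core and H1 on the linker DNA between nucleosomes. Most histone genes lie in clusters, have no introns, and are transcribed in S phase, when new chromatin is built on replicated DNA. Their messenger RNAs end in a stem-loop in place of a poly(A) tail, and NPAT, FLASH (Casp8ap2) and the stem-loop binding protein SLBP take part in their transcription, processing and use. They are widely used as marks of dividing cells.

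The family name did not cover every member alike. Of the 29 genes, 4 are known from testis (H1f6, H1f7, H2ac1 and H2bc1), 1 from oocytes (H1f8), and 1, H1f10, is a replication-independent linker histone. The other 23 are called cluster genes here. Whether each of them is transcribed in S phase was not tested, and H2bc21, known for a variant of olfactory neurons, is among them. By class there were 8 H1, 6 H2A, 8 H2B and 7 H4 genes and 0 H3 genes. Chromosome 13 carried 21 members, chromosome 3 carried 5, chromosome 6 carried 2 and chromosome 15 carried 1. All 12 H3 genes that the array annotation names were on probe sets shared with other genes. In all, 39 histone genes were read only by shared probe sets, and 37 probe sets carried between 3 and 13 histone genes each. Such a probe set cannot be given to 1 gene, so shared sets are described below by class only.

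Promoter sequences are shown to compare the letters the members share within and between classes. RefSeq promoter windows of the mouse build GRCm38.p6, 300 bases long around the annotated start, were found for 27 of the 29 members, and H2bc21 and H4c14 had none. The first 4 lines are linker histone promoters, from the gene with the largest difference between exposures (H1f5) to those that were not called; the last 3 are H2B promoters, again with the gene with the largest difference first (H2bc12). Capitals mark the H1 box AAACACA and TATAAA in the H1 windows, the octamer ATTTGCAT in the H2B windows, and CCAAT in both, written ATTGG where it lies on the other strand.
H1f5: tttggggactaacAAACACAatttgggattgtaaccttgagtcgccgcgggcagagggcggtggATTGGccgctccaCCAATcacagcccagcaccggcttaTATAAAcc
H1f2: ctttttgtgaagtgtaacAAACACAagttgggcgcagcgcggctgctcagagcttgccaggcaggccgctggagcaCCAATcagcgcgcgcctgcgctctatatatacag
H1f3: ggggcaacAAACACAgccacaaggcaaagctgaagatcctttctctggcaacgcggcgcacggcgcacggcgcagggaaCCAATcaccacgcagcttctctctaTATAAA
H1f1: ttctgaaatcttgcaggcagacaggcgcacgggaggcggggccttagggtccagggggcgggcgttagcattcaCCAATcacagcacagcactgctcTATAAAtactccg
H2bc12: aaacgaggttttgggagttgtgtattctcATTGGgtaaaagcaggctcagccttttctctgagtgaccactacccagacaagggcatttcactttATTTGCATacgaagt
H2bc3: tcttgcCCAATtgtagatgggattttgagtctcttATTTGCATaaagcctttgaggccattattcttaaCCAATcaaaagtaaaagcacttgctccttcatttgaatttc
H2bc18: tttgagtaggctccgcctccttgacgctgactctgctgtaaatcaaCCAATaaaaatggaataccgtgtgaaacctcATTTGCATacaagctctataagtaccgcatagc
The windows are at chr13:21780646-21780755 on the minus strand for H1f5, and on the plus strand at chr13:23738677-23738786 for H1f2, chr13:23554902-23555011 for H1f3, chr13:23763538-23763647 for H1f1, chr13:22035696-22035805 for H2bc12, chr13:23746609-23746718 for H2bc3 and chr3:96269575-96269684 for H2bc18. The H1 windows end 21 bases before the start site and the H2B windows 16 bases before it.

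Searched on both strands of the full window, the H1 box was in 4 of 8 H1 promoters, against 7.18% of 32851 mouse promoters, beginning 117 bases before the start in H1f5, 112 in H1f2, 122 in H1f3 and 114 in H1f6. H1f1, H1f7, H1f8 and H1f10 had no such letters in the window. It was also in 1 of 6 H2A promoters (H2ac1), 2 of 7 H2B promoters (H2bc14 and H2bc1) and 0 H4 promoters. The octamer was in 5 of 7 H2B and 3 of 6 H2A promoters and in 0 H1 and 0 H4 promoters, against 1.74% of all. CCAAT was in 20 of the 27 members, against 37.41%, and TATAAA in 16, against 13.62%. An E2F-type site, TTTCGCGC, was in 4 members (H2ac10, H2bc12, H2ac12 and H2bc22), against 0.32%. The windows of H2bc12 and H2ac12 share 277 of their 300 bases because these genes start next to each other in opposite directions, and those of H2ac1 and H2bc1 share 220, so hits within either pair are not separate and count in both the H2A and the H2B numbers. H1f5, H1f2 and H1f3 all held the H1 box, while their differences between CS and AIR were 0.60, 0.07 and 0.14 on the log2 scale. These matches are descriptions of the letters and not of binding.

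Members spanned most of the range of the array. Mean levels over the 21 arrays ran from 7.63 for H1f5, a main linker histone of dividing cells, down to 1.03 for H4c8. The median over all probe-set means was 2.1, and 13 members lay above it: H1f5, H1f2 and H1f10 among H1, H2ac21, H2ac10, H2ac15 and H2ac20 among H2A, H2bc3, H2bc21, H2bc12 and H2bc18 among H2B, and H4c12 and H4c9 among H4. The remaining 16, with all 5 testis and oocyte genes among them, lay at or below 1.98, which was the level of H1f3. RMA levels depend on the probes as well as on the RNA, so levels of different genes are not set against each other as amounts. No gap in level parted CS from AIR for any member, since the groups overlapped in all 29. The share of all probe sets that overlap is not given.

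**Figure D1:**
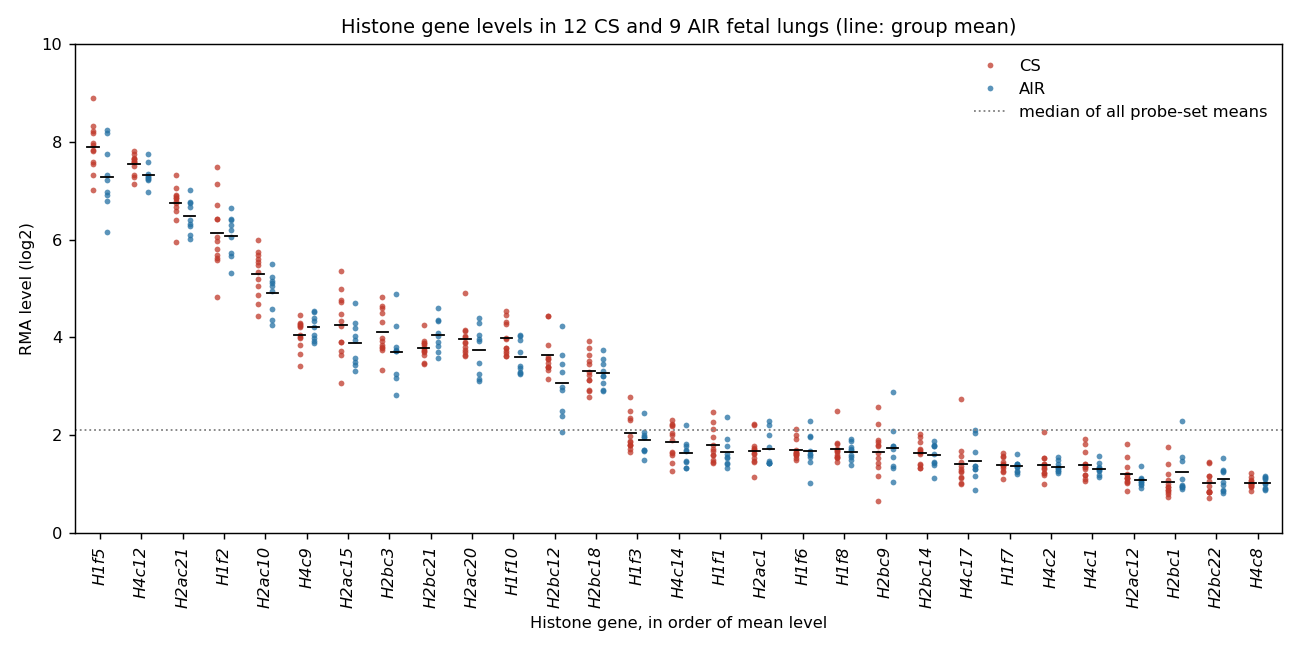
RMA level (log2) of each histone gene on the y axis, with a point per fetus (12 CS in red, 9 AIR in blue), a black line at each group mean and a dotted line at the median of all probe-set means, 2.1. The 13 genes on the left lie above that line, and CS and AIR points overlap for all 29 genes.

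A few facts of the whole series touch these genes. Alveolar type II markers were expressed as the tissue label says, with 13 of 13 genes of the list above the median level. Their list mean was 7.26 to 8.09 in CS and 7.77 to 8.22 in AIR, and 7 of the 13 were called lower in CS (median -0.35), against 2.19% of all probe sets; their part in the histone results was not tested. Genes known from other tissues were also high in some arrays, and whether those lung pieces carried such tissue was not tested. Thymocyte genes (6 of 10 above the median level; list mean 1.5 to 5.34 in CS and 1.66 to 3.85 in AIR) were more than 1 log2 unit above the median array in 3 arrays, CS male 1, CS female 8 and AIR female 9. Heart muscle genes were so in CS male 6, CS female 8 and AIR males 2, 3 and 5, and oesophagus genes in CS males 1 and 5, AIR males 1 and 5 and AIR female 7. Skeletal muscle genes were so in AIR male 5 and AIR female 7. CS male 1, with the highest thymocyte mean of 5.34, was also the highest array for 8 of the 13 members above the median level. The animal numbers in the labels fall into a lower range with 8 CS and 3 AIR fetuses and, after a gap, a higher range with 4 CS and 6 AIR fetuses. What the ranges stand for is not given.

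The merged comparison asked which histone genes changed with smoke, by the methods' threshold of a fold over 1.2 with an unadjusted p under 0.05 in limma. Of the 29 genes 4 were called higher in CS (H2bc12, H1f5, H1f10 and H2ac10) and 1 lower (H2bc21). Across all 40543 probe sets tested 2.22% were called higher and 2.19% lower, and among those above the median level, where all 5 called members lay, 3.35% and 2.99%. The called genes thus came to 4 higher and 1 lower of 13 members at such levels. At a false discovery rate of 10% no member and no other probe set was called in limma; the lowest adjusted p of a member was 0.537. At an unadjusted p under 0.05 there were 6 members, against 7.49% of all probe sets. The median difference was 0.07 over the 29 members, 0.27 over the 13 brighter and 0.03 over the 16 dimmer ones, beside 0.00 over all probe sets. Without AIR male 1 the count called higher was 2, with no share of all probe sets given for that fit.

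**Figure D2:**
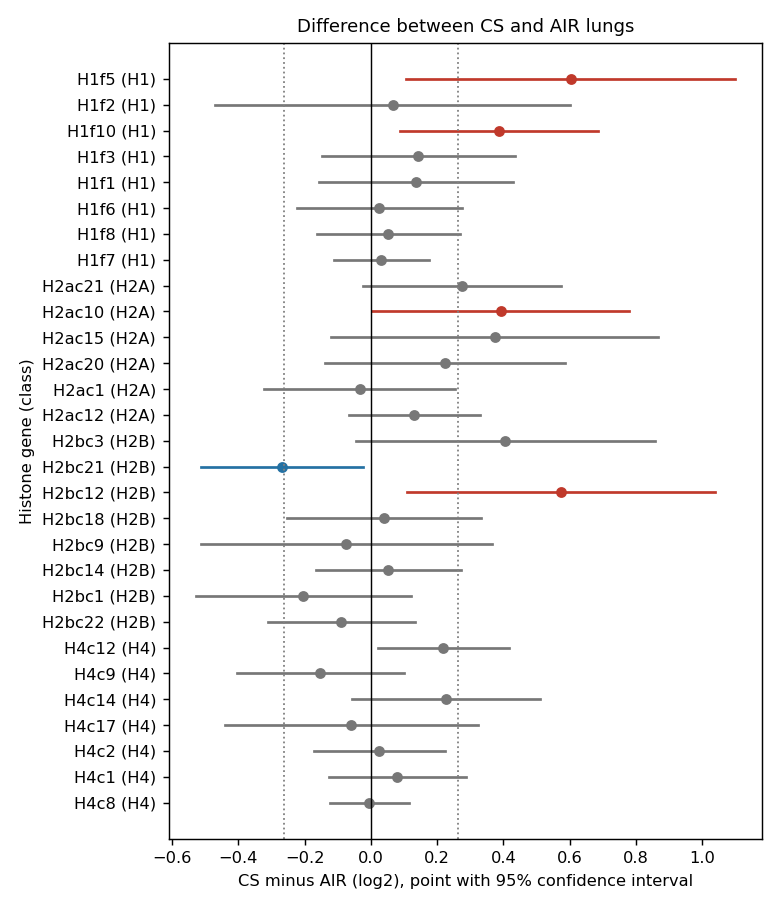
Difference between CS and AIR means (log2, x axis) of each histone gene with its 95% confidence interval, ordered by class and level; red marks genes called higher, blue the gene called lower, and dotted lines the fold of 1.2. H1f5 at 0.60 and H2bc12 at 0.57 lie farthest to the right, and H2bc21 at -0.27 farthest to the left.

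Among the linker histones H1f5 and H1f10 were called higher. H1f5 was between 7.02 and 8.90 in CS (median 7.88) and between 6.16 and 8.24 in AIR (median 7.22). CS male 1 was the highest array and AIR male 1 the lowest, and 11 of 12 CS lungs lay above the AIR mean, but only 2 above every AIR lung. The difference of 0.60 (SE 0.24; 1.52-fold) had p = 0.0195 and adjusted p = 0.566 in limma, and p = 0.0288 in a two-sided exact permutation test. It was not called without AIR male 1, when the difference was 0.46, and was 0.71 (p = 0.0032, limma) without the 3 arrays high in thymocyte genes.

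H1f10, the replication-independent linker histone, was between 3.61 and 4.55 in CS (median 3.88) and between 3.25 and 4.05 in AIR (median 3.41). All 12 CS lungs lay above the AIR mean and 5 AIR lungs lay below every CS lung. Its difference was 0.39 (SE 0.14; 1.31-fold; limma p = 0.0134, adjusted p = 0.537; exact permutation p = 0.0194). Without the arrays high in thymocyte, heart muscle or oesophagus genes, which left 8 CS and 3 AIR, the difference was 0.50 and not called (limma p = 0.0633). The main linker histone gene H1f2 varied widely among fetuses, from 4.83 to 7.48 in CS and from 5.31 to 6.65 in AIR, with a difference of 0.07 (SE 0.26). H1f3 and H1f1 differed by 0.14 each, and the germ cell forms H1f6, H1f7 and H1f8 by 0.03 to 0.05. None of these 6 was called.

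Of the core histones H2A, 1 of 6 was called. H2ac10 was between 4.43 and 5.99 in CS (median 5.41) and between 4.26 and 5.50 in AIR (median 5.05). CS male 1 was highest and AIR male 2 lowest, and 5 CS lungs exceeded every AIR lung. The difference of 0.39 (SE 0.19, 1.31-fold) had p = 0.0475 and adjusted p = 0.663 in limma and an exact permutation p of 0.0623. The call was lost on leaving out any of 13 of the 21 arrays. It remained when the array left out was AIR female 8, AIR male 3, 4 or 5, CS male 2 or 5, or CS female 8 or 11. Over all 21 such fits the difference was 0.31 to 0.47. With the thymocyte list in the fit the difference was 0.37 and not called (limma p = 0.0683).

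The brightest H2A gene, H2ac21, was between 5.96 and 7.32 in CS (median 6.81) and 6.01 and 7.01 in AIR (median 6.41). It was higher by 0.27 (SE 0.14; limma p = 0.0703, adjusted p = 0.700) and not called, although 10 of 12 CS lungs lay above the AIR mean; it was called on leaving out CS male 6, CS female 8, AIR male 5 or AIR female 6 alone, with differences up to 0.35. H2ac15 and H2ac20 differed by 0.37 (SE 0.24) and 0.22 (SE 0.17). H2ac12 and the testis gene H2ac1 lay below the median level and differed by 0.13 and -0.03.

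The H2B genes went both ways. H2bc12 was between 3.15 and 4.44 in CS (median 3.52) and between 2.08 and 4.24 in AIR (median 2.99). All 12 CS lungs lay above the AIR mean and 5 AIR lungs below every CS lung, with CS male 1 highest and AIR male 1 lowest. The difference was 0.57 (SE 0.22; 1.49-fold; limma p = 0.018, adjusted p = 0.556; exact permutation p = 0.0261). It stayed called when any 1 array was left out (0.45 to 0.72) and was 0.65 without the 3 arrays high in thymocyte genes.

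H2bc21, a gene known in the mouse for an H2B variant of olfactory neurons, was the only member called lower. It was between 3.45 and 4.26 in CS (median 3.76) and between 3.57 and 4.6 in AIR (median 4.02). In 11 of 12 CS lungs it was below the AIR mean, and 3 AIR lungs exceeded every CS lung. The difference of -0.27 (SE 0.12, 1.21-fold lower, limma p = 0.0319, adjusted p = 0.617, exact permutation p = 0.0362) stood at the fold threshold. It was not called with sex or the heart muscle list in the fit. Nor was it called without AIR female 8, CS males 2 or 5, CS females 10 or 12, or AIR males 2 or 3. Over all fits with 1 array left out it was -0.33 to -0.20.

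H2bc3, the brightest H2B gene of the set, was between 3.34 and 4.82 in CS (median 3.96) and 2.82 and 4.89 in AIR (median 3.73). Both extremes were AIR lungs, AIR male 5 at the top and AIR male 4 at the bottom. It differed by 0.41 (SE 0.22; limma p = 0.0759, adjusted p = 0.714) and was called only without CS male 5, AIR male 5 or AIR female 8 (up to 0.55). H2bc18 differed by 0.04, and the dim genes H2bc9, H2bc14, H2bc22 and the testis gene H2bc1 by -0.20 to 0.05.

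No H4 gene was called. H4c12, the brightest, was between 7.13 and 7.82 in CS (median 7.6) and 6.98 and 7.75 in AIR (median 7.28). CS male 1 was highest and AIR male 3 lowest, and 9 of 12 CS lungs lay above the AIR mean. Its difference of 0.22 (SE 0.10; limma p = 0.0313, adjusted p = 0.617; exact permutation p = 0.032) was 1.16-fold, under the fold asked for, except without AIR female 6 (0.27). H4c9 was lower by 0.15 (SE 0.12; limma p = 0.221) and the other 5 H4 genes, all at or below the median level, differed by -0.06 to 0.23.

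Probe sets shared by several histone genes gave a view of the genes that have none of their own, H3 among them. Of 34 shared probe sets tested 6 were called higher and 0 lower, beside the same background of 2.22% and 2.19%. They were 5 of 7 H2B sets and 1 of 9 H2A sets, and 0 of 12 H3 and 0 of 5 H4 sets. All 6 lay above the median level, where 3.35% of all probe sets were called higher. The 1 set that mixed H1 and H2B genes differed by -0.06 and was not called. In the higher range of animal numbers it was called lower (-0.39, SE 0.13, limma p = 0.00508). The brightest 2, both H2B sets at mean levels of 10.14 and 9.43, differed by 0.37 (SE 0.13; limma p = 0.00961, adjusted p = 0.516) and 0.39 (SE 0.13; p = 0.00647, adjusted p = 0.482). The H2B sets share genes with each other, H2bc12 included, and are not separate measurements. Nor are the H3 sets, which carry 4 or 8 of the 12 H3 genes each. Sets of H2A and of H4 genes overlap too. The median difference was 0.33 over the 7 H2B sets and -0.01 over the 12 H3 sets. All 7 H2B sets lay above the median level but only 3 of the H3 sets, and the median over these 3 was 0.19.

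The sexes were then taken apart. In females, 6 CS against 4 AIR, 1 member (H1f10, 0.59, SE 0.21, limma p = 0.0119) was called higher and 0 lower, against 2.49% and 2.89% of all probe sets. In males, 6 CS against 5 AIR, 3 were called higher (H1f5, H2bc12 and H4c12) and 2 lower (H2bc21 and H4c9), against 2.52% and 2.39%. Tested directly, the difference between the sexes had an unadjusted p under 0.05 for 1 member, H4c2, against 4.41% of all probe sets. These counts moved with single arrays. Without the 3 arrays high in thymocyte genes 7 members were called higher in females and 1 in males. Leaving out CS female 8 alone gave 3 in females and CS female 10 alone gave 2. The percentages above are for all arrays, and no share of all probe sets is given for these smaller sets. The counts therefore show only how far they moved. In males 1 was called higher without CS male 1 or without AIR male 1, 2 or 3, and 0 were called lower without CS male 1, CS male 5 or AIR male 3.

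H4c2 lay below the median level of the array. It was between 1.22 and 2.07 in CS females (median 1.47) and between 1.23 and 1.36 in the 4 AIR females. In males it was between 1.0 and 1.40 in CS (median 1.28) and between 1.27 and 1.55 in the 5 AIR lungs. The difference was 0.23 in females and -0.16 in males, 0.39 apart (limma p = 0.0402, adjusted p = 1.0), and the top value belonged to CS female 12, without which the merged difference turned from 0.03 to -0.04. The sex difference of H4c2 was lost on leaving out CS male 6, CS female 8, 9 or 12, AIR male 1 or 3, or AIR female 6 or 9. H4c9 was 0.08 higher in females and 0.37 lower in males, 0.44 apart (limma p = 0.0708, adjusted p = 1.0). None of the 4 members called higher in the merged comparison differed between the sexes at an unadjusted p under 0.05.

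The exposure difference was not spread evenly over the animal numbers. Within the lower range 5 members were called higher in CS and 0 lower, against 3.38% and 4.87% of all probe sets; within the higher range 0 were called higher and 2 lower, against 2.36% and 1.91%. The 5 were H2bc12, H1f5, H2ac10, H2ac15 and H1f10, which include the 4 called in the merged comparison. For the same 5 genes the difference between the ranges had an unadjusted p under 0.05, against 6.76% of all probe sets, and no member passed a false discovery rate of 10% on that difference (0.0469% of all probe sets did). Taken with its sign, CS minus AIR was higher in the lower than in the higher range for all 13 members above the median level. Among probe sets at such levels the share was 48.9%. It was so for 22 of all 29 members and 9 of the 16 dimmer ones, against 20798 of all 40543 probe sets. The 13 are not separate observations, since they were read in the same lungs and covaried across them. For H2bc21 the ranges were alike (-0.27 in each), and for H4c9 and H2bc18 the difference was larger in size, and negative, in the higher range. Alveolar type II genes moved with this split: 9 of 13 were called lower in the lower range (median -0.59) and 0 in the higher (median 0.03), and their part in the result was not tested.

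H2bc12 in the lower range was 2.08, 2.39 and 2.93 in the AIR lungs and 3.40 to 4.44 in the 8 CS lungs (median 3.53). The AIR values of 2.08 and 2.39 were from AIR male 1, high in oesophagus genes, and AIR male 2, high in heart muscle genes. Among the CS lungs there, CS male 1 and CS female 8 were also high in genes of other tissues. The same lungs enter every lower-range difference, and their part in it was not tested. The AIR and CS values of H2bc12 did not overlap, though the share of all probe sets without overlap in so few lungs is not given. The difference was 1.28 (SE 0.30; limma p = 0.000336, adjusted p = 0.0541, the only member to pass a false discovery rate of 10% in this range, against 1.05% of all probe sets), and the exact permutation p of 0.00606 was the smallest that 165 regroupings can give. In the higher range the CS lungs were 3.15, 3.33, 3.55 and 3.60 and the 6 AIR lungs 2.49 to 4.24 (median 3.38), a difference of 0.05 (SE 0.28). The ranges differed by 1.23 (limma p = 0.00717, adjusted p = 0.493). The AIR medians of the lower and higher range were 2.39 and 3.38 and the CS medians 3.53 and 3.44; AIR female 8 of the higher range, at 2.49, lay among the low AIR values too.

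H1f5 in the lower range was 6.16, 6.97 and 7.22 in AIR and 7.02 to 8.90 in CS (median 8.09), overlapping only through CS female 8. It differed by 1.26 (SE 0.33; limma p = 0.00109, adjusted p = 0.101) there and by 0.04 (SE 0.32) in the higher range. H1f10 did not overlap in the lower range, with 3.25, 3.30 and 3.41 in AIR and 3.61 to 4.55 in CS. Again no share of all probe sets stands beside this. The H1f10 difference was 0.76 there and 0.05 in the higher range. H2ac10 differed by 0.93 and 0.09, and H2ac15 by 0.88 and -0.23. CS female 8, an array high in thymocyte and heart muscle genes, was again the lowest CS lung for H2ac10 and H2ac15, at 4.43 and 3.08.

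H2bc21 differed by -0.27 in either range and was called in neither. The 2 members called lower in the higher range were H4c9 (-0.42, SE 0.17, limma p = 0.0195) and the testis gene H2bc1 (-0.51, SE 0.22, limma p = 0.0324), which was close to the bottom of the scale in CS (0.75 to 1.01) and reached 2.29 in AIR female 9, an array high in thymocyte genes. The count called lower in the higher range was 0 without CS male 5 and 1 without CS female 11, CS female 12, AIR male 4 or AIR female 7. No share of all probe sets is given for these fits. The brightest 2 shared H2B probe sets differed by 0.80 and 0.82 in the lower range (limma adjusted p of 0.0268 and 0.0232) and by 0.03 and 0.05 in the higher. Since 8 of 11 lungs in the lower range and 4 of 10 in the higher were CS, each range holds few lungs of 1 exposure.

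**Figure D3:**
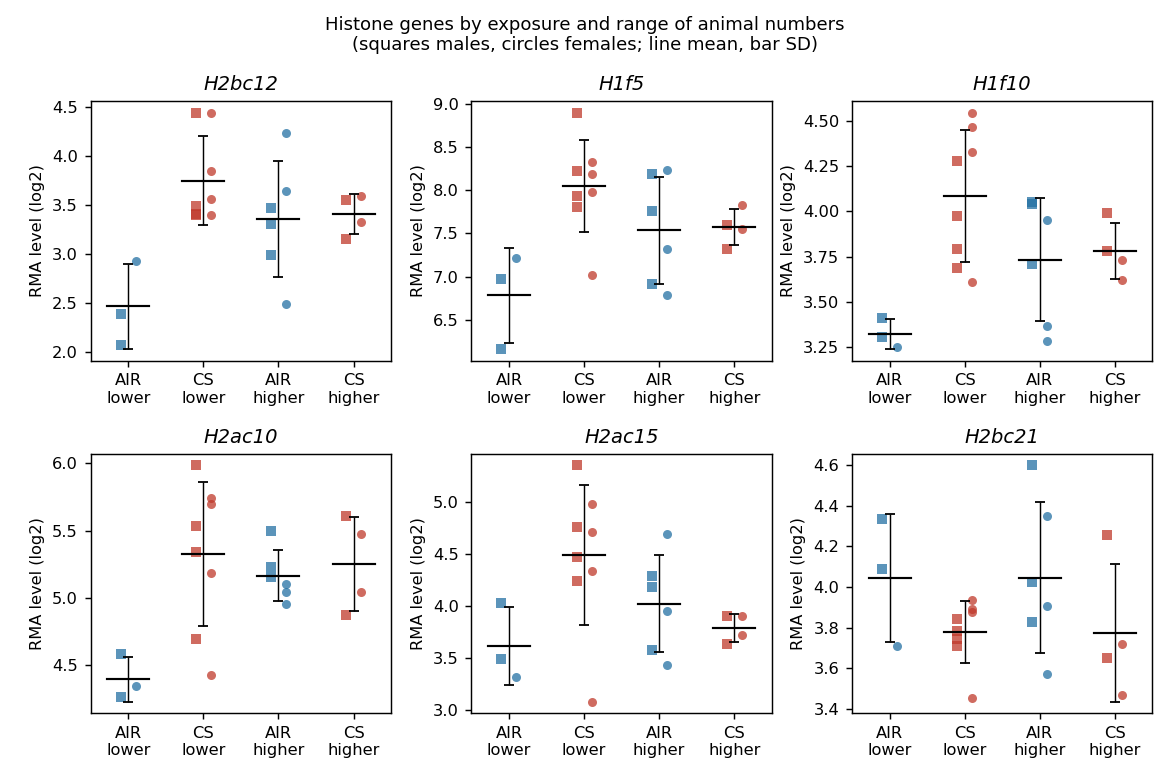
RMA level (log2, y axes that do not start at 0 and differ between genes) of 6 histone genes by exposure (AIR blue, CS red) and range of animal numbers, with squares for males, circles for females, a line at the mean and a bar for the SD. In the lower range H2bc12 and H1f10 do not overlap between AIR and CS, whereas in the higher range all 6 genes do. The lower range holds 3 AIR and 8 CS lungs, and the share of all probe sets without overlap there is not given.

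Covariation among fetuses was described after the mean of each exposure was taken out of every gene. The correlations are over 21 lungs and share the arrays and their normalization. The 13 members above the median level had a median pairwise r of 0.32 over 78 pairs, with 23.1% of pairs above 0.5, beside 0.02 and 2.3% over all genes above the median level. The 16 dimmer members had a median r of -0.03 over 120 pairs. Within CS alone the median over the 13 was 0.41, within AIR 0.20, and without the 3 arrays high in thymocyte genes 0.27.

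Close pairs were found between and within classes. H1f5 and H2ac15 had an r of 0.81, H1f5 and H2ac20 0.75, H2ac21 and H2ac15 0.70 and H1f2 and H2ac20 0.69. H1f5 is on chromosome 13 and H2ac20 and H2ac21 on chromosome 3, so closeness was not limited to genes of 1 cluster; the 8 bright cluster genes on chromosome 13 had a median r of 0.37 and the 4 on chromosome 3 of 0.17. Among the dim genes H1f1 had an r of 0.65 to H1f5 and 0.66 to H2ac15; its highest levels were in CS male 1 (2.48) and AIR female 9 (2.37), both high in thymocyte genes. H2bc12 and H2ac12, which share a promoter region, had an r of 0.00, with H2ac12 near the bottom of the scale at a mean of 1.15. H4c9 and H2bc21 were apart from the rest, and H2bc21 and H4c12 had an r of -0.54.

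**Figure D4:**
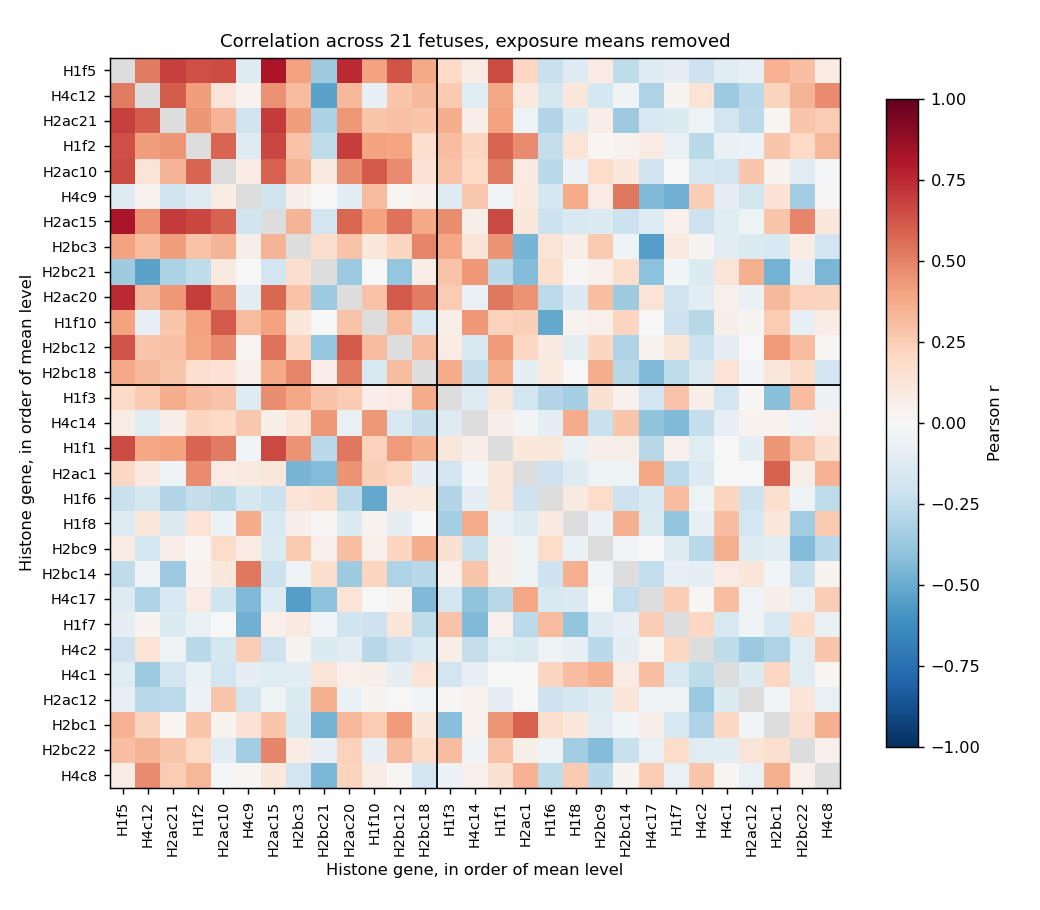
Pearson correlation of each pair of histone genes across 21 fetuses after removal of the exposure means (red positive, blue negative, grey the diagonal), with genes ordered by mean level on both axes and black lines after the 13th. The upper left block is mostly red, with H1f5 and H2ac15 at 0.81, except for the bands of H4c9 and H2bc21.

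The same fetuses were high in DNA replication genes. Against the mean of 41 DNA replication genes, which holds no histone, r was above 0.5 for 8 of the 13 bright members and for 1 of the 16 dim ones (H1f1, 0.59). The share of all genes with such an r is not given, so these counts are descriptions. The r was 0.83 for H1f5, 0.75 for H2ac15, 0.70 for H2bc12, 0.63 for H2ac20 and 0.61 for H2ac21. H4c9 had -0.01 and H2bc21 -0.13. For H1f1 r was 0.29 without the 3 arrays high in thymocyte genes, and its r with the thymocyte list was 0.50. For the replication-independent H1f10 the value depended on the arrays: it was 0.28 over all 21, 0.52 without the arrays high in thymocyte genes, 0.48 within CS, 0.07 within AIR and -0.01 with the number range also taken out.

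The 12 bright cluster genes are the members above the median level without H1f10, and H2bc21 is among them. Averaged over these, the histone level was 4.67 to 5.67 in CS (median 4.99) and 4.52 to 5.27 in AIR (median 4.77). Its r with the DNA replication mean was 0.87 (rho 0.72), 0.88 within CS, 0.90 within AIR and 0.82 with the number range also taken out. Without the arrays high in thymocyte genes it was 0.88, and without the 2 lungs farthest from the median of the DNA replication mean 0.85. The r with the mitosis list was 0.80, with the histone chaperone list 0.85, with the thymocyte list 0.38 (rho -0.00; -0.17 without the 3 arrays high in thymocyte genes). With the alveolar type II list it was -0.45, -0.77 without those 3 arrays and -0.12 with the number range also taken out.

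**Figure D5:**
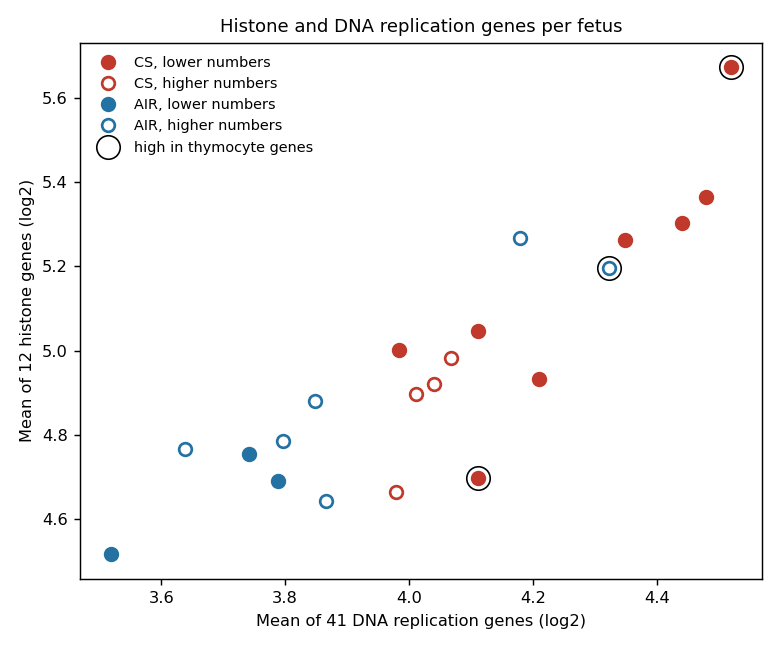
Mean level of 12 bright cluster histone genes (log2, y axis) against the mean of 41 DNA replication genes (log2, x axis), with a point per fetus, red for CS and blue for AIR, filled for lower and open for higher animal numbers, and rings around the 3 arrays high in thymocyte genes. CS male 1 is at the upper right with 5.67 and 4.52 and AIR male 1 at the lower left with 4.52 and 3.52.

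Of the genes that make and process histone messages, 25 had a probe set of their own. Of these 0 were called either way, against 2.22% higher and 2.19% lower of all probe sets. Their median difference was 0.07, and 2 of the 25 had an unadjusted p under 0.05 in limma. That is near the 7.49% of all probe sets with such a p. Slbp, which binds the stem-loop, was 4.71 to 5.78 in CS and 4.87 to 5.51 in AIR, a difference of 0.18 (SE 0.12; limma p = 0.147). Npat, the coactivator of histone transcription, was above the AIR mean in all 12 CS lungs with a difference of 0.19 (SE 0.09; limma p = 0.0332, adjusted p = 0.620), and Casp8ap2 differed by 0.17 and Zfp473 by 0.24. Tent4b, a noncanonical poly(A) polymerase, was below the AIR mean in all 12 CS lungs, at 4.62 to 5.12 against 4.89 to 5.34, and differed by -0.23 (SE 0.07; limma p = 0.00407, adjusted p = 0.468), a 1.17-fold difference that the fold threshold left out.

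Calls among histone variants and histone chaperones are given beside the 2.22% of all probe sets called higher and 2.19% lower. Whether each of these variants is transcribed outside S phase was not tested. Of 9 variants 3 were called higher and 0 lower: Cenpa, the H3 variant of the centromere (0.54, SE 0.14, limma p = 0.000795, adjusted p = 0.416), H2ax, whose phosphorylated protein marks DNA breaks (0.42, SE 0.18, p = 0.0244, adjusted p = 0.593), and H1f10, which is also a member above. H2az2 was higher by 0.21 and not called. Of 27 chaperones and deposition enzymes 3 were called higher and 0 lower: Hat1, which acetylates new H4 (0.36, SE 0.08, limma p = 0.000182, adjusted p = 0.348), Chaf1b, a subunit of the CAF-1 chaperone (0.41, SE 0.11, p = 0.00134, adjusted p = 0.445), and Anp32e, a chaperone of H2A.Z (0.32, SE 0.13, p = 0.026, adjusted p = 0.595). Asf1a was higher by 0.21 and not called.

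Anp32e was not called without CS male 1 or AIR male 1 (0.24 at the lowest), nor H2ax without AIR male 1 or AIR male 2 (0.35 at the lowest). In the lower number range 4 of the 9 variants and 11 of the 27 chaperones were called higher, against 3.38% of all probe sets, and in the higher range 0 and 1, against 2.36%. The DNA replication list had 26 of 41 and the mitosis list 34 of 34 called higher in the merged comparison, against 2.22%, with median differences of 0.34 and 0.51 beside 0.25 for the 12 bright cluster histones. These lists were drawn up with earlier results of these data known, so their counts are descriptions.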

How the data were processed

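The deposited values were gene-level log2 signals of Affymetrix Mouse Gene 2.1 ST arrays, which per the methods and the labels the authors made by RMA (background correction, quantile normalization and median polish) in Affymetrix Expression Console 1.3.0.187 from lung RNA amplified with a whole-transcriptome kit; a gene build is not given in the sources used here. The authors left out 3 AIR arrays after quality control. The file listed 41345 probe sets, of which 802 repeated another's values and 40543 were tested; 23521 carried 1 gene symbol in the platform annotation, 1820 several and 16004 none, and 23328 of the first kind were matched to current symbols by gene number.

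Differences were fitted in R 4.3.3 with limma 3.58.1 (lmFit and eBayes, both sexes merged as in the methods) and p-values adjusted by Benjamini-Hochberg over all probe sets tested. Cell-means fits gave values within sex and within number range. Exact two-sided permutation tests and correlations used numpy 2.4.6, with ranks from scipy 1.17.1 (Python 3.11.15). The fit was tested on simulated data. Arrays give no read depth, and their number limits the precision. Named with full values were members past the threshold, the brightest and lowest-p member of each class, the 2 with the lowest p for the sex and for the range difference, and the 4 lowest-p genes of each related list with Slbp and Npat. Members and lists were chosen with earlier results of these data known. Alternatives covered redundant and multi-gene probe sets, low levels, variance models, normalization, covariates, thresholds, the replicate block and each array left out. Leaving out arrays high in genes of other tissues and the DNA replication covariate were added after seeing the data.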

Additional observations from a re-analysis of the deposited data

Results flagged for a closer look

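Of 115 group values examined, 8 held an array that stood far from the rest of its group, and chance alone gives about 1 in 20. Among CS males H2bc12 was 4.44 in CS male 1, with 3.55 next, and Anp32e was 6.50 in the same array, with 5.66 next. H2bc21 was 4.26 in CS male 6, with 3.84 next among CS males. H1f10 was 3.95 in AIR female 7, with 3.37 next among the 4 AIR females. H4c12 was lowest in AIR male 3 at 6.98, with 7.21 next, and Hat1 was highest in AIR male 5 at 7.22, with 6.88 next. Among CS females Npat was 4.58 in CS female 7, with 4.32 next, and Casp8ap2 was lowest in CS female 10 at 5.02, with 5.35 next.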

How the results depend on the processing

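Of 438 values of named genes under the planned and added settings other than leaving out 1 array, 378 kept direction and call, 45 lost a call, 7 gained one and 8 turned sign. With 1 array left out at a time, members called ranged from 2 to 6 higher and 0 to 1 lower, and the median difference from 0.04 to 0.11. Within females they ranged from 1 to 3 higher and 0 to 1 lower, within males from 1 to 4 and 0 to 2, in the lower number range from 4 to 6 higher and in the higher range from 0 to 1 higher and 0 to 2 lower. Sex differences at an unadjusted p under 0.05 ranged from 0 to 1, and the median correlation of the bright members from 0.25 to 0.35 (0.20 within AIR, 0.048 with dim members included). The median difference was 0.27 above the median level. H4c2 ranged from -0.036 without CS female 12 to 0.061 without CS male 6.

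A fold over 1.5 left 1 member higher and 0 lower, and a false discovery rate of 10% left 0 and 0. Sex as a factor and the heart muscle list as a covariate each left 0 lower. With cluster histones only, females had 0 higher and the higher range 1 lower. Without the 3 arrays high in thymocyte genes females had 7 members higher, males 1 higher and 0 lower, the sex difference 0 members and the higher range 1 lower. Without all arrays high in thymocyte, heart muscle or oesophagus genes, 0 were lower in the merged comparison, and H4c9 turned to 0.094. Females then had 5 higher and the higher range 1 lower. AIR male 4 was the only AIR male left, so no counts are given for males or for the sex difference. Shares of all probe sets are not given for the settings and reduced sets of arrays in this section, so all its counts of members are descriptions. With the DNA replication mean as a covariate 0 members were higher and 0 lower, and H1f5 (-0.12), H2bc3 (-0.058), H2ac21 (-0.037), Slbp (-0.12), H2ax (-0.023) and Anp32e (-0.049) turned sign; the cause was not tested.

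The labels give CS and AIR arrays 9 shared replicate numbers, but same-numbered arrays did not deviate together (correlations of -0.07 to 0.13, 1 of 9 over 0.1), so the numbers were not taken as pairs. With the replicate number as a block 2 members were higher and 0 lower, and H4c2 was -0.035.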
